A study of Homo sapiens with 6 samples.

Results

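The zinc finger (ZNF) genes of chromosome 19 were examined for open chromatin at their start sites. They were the GENCODE release 44 protein-coding genes on chromosome 19 whose symbol is ZNF followed by digits only, which gave 240 of the 1476 protein-coding genes of that chromosome. The other 1236 coding genes of chromosome 19 served as the comparison. Open chromatin was profiled with ATAC-seq in MCF10A, an established, non-tumorigenic human mammary epithelial line, wild type in genotype. Cells were first kept for 30 min in phosphate-free HHBSS, and were then left in it untreated (control) or given 50 μM TPA (Tris(2-pyridylmethyl)amine, a Zn2+ chelator) or 30 μM ZnCl2 for a further 30 min. Each of the 3 conditions had 2 libraries, 6 in all, and every condition, control included, had the phosphate-free incubation. The study's methods call the replicates biological and its results call them technical, so p-values here measure only the spread between these libraries. A start site, the 5′ end of the gene record, was called open in a library when an open region called there by HMMRATAC covered it.

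Most ZNF proteins of chromosome 19 are DNA-binding factors built from a row of C2H2 zinc fingers, each of which folds around a Zn2+ ion. Many also carry a KRAB domain, which recruits the corepressor TRIM28 and, through it, enzymes that lay down repressive chromatin, and many of these KRAB-ZNF proteins silence transposons. The genes stand in long tandem clusters that grew by duplication, and their bodies are known to be held in compact, H3K9me3-marked chromatin while many of their promoters lie in CpG islands. In the proteins translated from the annotation, the members had a median of 12 fingers, and 193 of 240 held a stretch that matched a KRAB-like pattern. That pattern misses diverged domains such as those of ZNF43 and ZNF471.

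The 250 bases upstream of 5 start sites show how unlike these promoters are. They are given 5′ to 3′ in the direction of the gene, from hg38, with CpG dinucleotides in capitals, since CpG content is the promoter feature that the results return to. ZNF584, a KRAB-ZNF gene, had the highest score percentile of all members open in every library, and its stretch (chr19:58401254-58401503, plus strand) holds 28 CpG. ZNF550 (chr19:57559864-57560113, minus strand) had the lowest and holds 11 CpG. ZNF91 (chr19:23395472-23395721, minus strand), a known repressor of SVA transposons, was open in all 6 libraries with 7 CpG. ZNF841 (chr19:52095766-52096015, minus strand) was called in both control and neither TPA library. ZNF541 (chr19:47573149-47573398, minus strand) was open in no library with 39 CpG.
ZNF584: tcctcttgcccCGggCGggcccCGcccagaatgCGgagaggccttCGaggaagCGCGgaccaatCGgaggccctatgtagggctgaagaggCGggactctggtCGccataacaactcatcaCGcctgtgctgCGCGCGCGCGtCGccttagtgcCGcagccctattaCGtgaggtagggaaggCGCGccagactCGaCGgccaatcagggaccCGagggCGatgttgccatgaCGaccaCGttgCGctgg
ZNF550: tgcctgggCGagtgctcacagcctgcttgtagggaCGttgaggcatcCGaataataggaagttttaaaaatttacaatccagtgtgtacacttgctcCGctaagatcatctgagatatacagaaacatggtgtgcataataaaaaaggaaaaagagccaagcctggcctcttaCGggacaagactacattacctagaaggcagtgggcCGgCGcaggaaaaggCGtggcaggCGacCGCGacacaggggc
ZNF91: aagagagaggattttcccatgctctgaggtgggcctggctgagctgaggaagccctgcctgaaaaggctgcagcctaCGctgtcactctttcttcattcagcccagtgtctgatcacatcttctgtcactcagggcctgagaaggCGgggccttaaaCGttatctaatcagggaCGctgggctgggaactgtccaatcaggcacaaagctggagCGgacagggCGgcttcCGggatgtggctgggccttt
ZNF841: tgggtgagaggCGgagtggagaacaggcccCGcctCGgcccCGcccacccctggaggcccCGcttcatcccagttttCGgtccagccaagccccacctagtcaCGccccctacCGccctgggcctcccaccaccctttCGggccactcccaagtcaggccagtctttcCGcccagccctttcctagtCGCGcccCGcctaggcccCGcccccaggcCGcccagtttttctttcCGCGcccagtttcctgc
ZNF541: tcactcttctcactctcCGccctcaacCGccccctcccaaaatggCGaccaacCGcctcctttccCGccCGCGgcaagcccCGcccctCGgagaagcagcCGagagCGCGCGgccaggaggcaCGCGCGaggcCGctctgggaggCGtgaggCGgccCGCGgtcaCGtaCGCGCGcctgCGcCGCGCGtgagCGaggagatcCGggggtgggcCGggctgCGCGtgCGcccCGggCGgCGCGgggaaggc

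The deposited lists differed in length from 18887 to 44641 regions on chromosomes 1 to 22, X and Y, and the number of start sites called open followed it. Scores were therefore read only as percentiles, the percent of regions of the same list with a lower score, and each count was also taken from the 18887 highest-scoring regions of every library, called here the lists of equal number. The cut for these lay at a score of 36 and 60 in the control libraries, 49 and 54 in the TPA libraries, and 52 and 30 in the ZnCl2 libraries, the last being the shortest list itself. The number of reads behind each list was not given, so the depth is unknown. As a check of the label, among the markers of mammary epithelium KRT18 was open in 6 libraries, EGFR and KRT5 in 5, KRT14 in 4 and CDH1 in 3. TP63 was open in none at its gene start. Of the blood and neural markers, PTPRC and CD3E were open in none, GFAP in 1 and SYP in 4.

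ZNF start sites split into an open and a closed set. With all regions, 98 of 240 (40.8%) were open in all 6 libraries, 89 (37.1%) in none and 53 in 1 to 5. Of the other coding genes of the chromosome, 37.1% were open in all and 40.3% in none. At the start of the canonical transcript the groups stood further apart, with 45.8% of ZNF and 38.5% of other genes open in all 6, and 29.2% and 41.3% in none. In the lists of equal number 71 members were open in all 6 and 124 in none.

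By library, the share of ZNF start sites open was 46.2% and 60.4% in control, 51.7% and 56.7% with TPA and 53.8% and 44.6% with ZnCl2. Other coding genes stood at 44.8% and 55.1%, 48.1% and 52.7%, and 52.8% and 41.7% in the same order. The ZNF share was above theirs in 6 of 6 libraries, by 3.03 ± 1.62 percentage points (SD, n = 6; exact sign-flip test, two-sided, p = 0.03125, the smallest 6 libraries allow). The size of this difference depended on the lists, the start and the genes used. At the start of the canonical transcript it was 9.72 points, above 0 in 6 of 6 libraries (exact sign-flip test, p = 0.03125). In the lists of equal number it was 0.087 points, with 3 libraries on either side (exact sign-flip test, p = 0.906), and with other zinc finger symbols counted as members it was 1.63 points (exact p = 0.0938). Without promoters that hold a 50 bp piece found elsewhere in the genome, it was -0.0947 points (exact sign-flip test, p = 0.906). For these 216 ZNF and 1094 other genes it was -2.84 points in the lists of equal number, with ZNF lower in 6 of 6 libraries. This class was chosen after its values were seen.

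**Figure D1:**
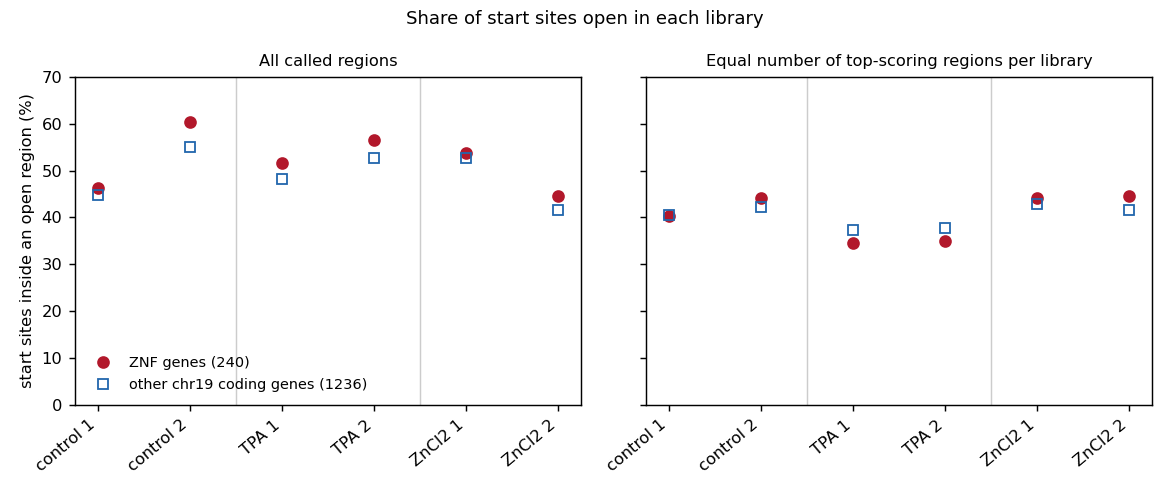
Share of start sites inside an open region (%, y axis) in each of the 6 libraries (x axis), for the 240 ZNF genes (filled circles) and the 1236 other coding genes of chromosome 19 (open squares), with all called regions (left) and with equal numbers (18887 per library, right). In the right panel both TPA libraries lie below the other 4 in either gene group, at 34.6% and 35.0% for ZNF genes.

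Where a ZNF start was open, its region was lower in score and narrower than at other genes. The median percentile of open ZNF starts was 60.8 and 74.1 in control, 60.7 and 65.4 with TPA and 69.2 and 57.0 with ZnCl2, against 77.8 and 79.0, 74.2 and 77.4, and 76.3 and 74.0 at the other genes. The gap was -11.9 ± 5.04 percentile points (SD, n = 6), below 0 in 6 of 6 libraries (exact sign-flip test, two-sided, p = 0.03125), and -20.5 in the lists of equal number. Median width ran from 1220 to 1980 bp over ZNF starts and from 1685 to 2990 bp over the others, a gap of -688 ± 261 bp with ZNF narrower in 6 of 6 libraries (exact sign-flip test, p = 0.03125). Adjusted over these 3 paired comparisons by Benjamini-Hochberg, each p stayed at 0.03125. In the 98 members open throughout, more of the region lay downstream of the start than upstream in 68.4% to 78.6% of genes by library, against 59.9% to 65.1% of the other genes open throughout. Between 25.2% and 27.9% of open ZNF starts lay in a region that also covered another coding start.

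The closed ZNF starts were far from open chromatin. Of the 89 that no library covered, 72 (80.9%) were over 10 kb from any open region of any library, with a median distance of 38113 bp, whereas 53.6% of the other closed genes were that far, with a median of 11116.5 bp. Only 4 of the 89 had an open region within 1 kb, and 27 had one anywhere in the gene body. The start used matters for some: 58 of the 89 have another start for the canonical transcript, and 21 were open there in at least 1 library, 12 of them in all 6. ZNF540 and ZNF529 are such genes, closed at the gene start and open in all 6 libraries at the canonical one. ZNF579 was closed at both, with 69.7% GC in its promoter and the nearest open region 5663 bp from the gene start. At neither start was a region called in 68 members (28.3%), against 469 of the other genes (37.9%).

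The longest run of neighbouring members open in no library counted 11 genes, from ZNF43 (start at chr19:21852125) to ZNF730 (chr19:23075210), and none of them was open at the canonical start either. The median distance of these 11 to an open region was 416560 bp, their median CpG observed/expected ratio was 0.613, and 3 of them had a stretch of 50 bp near the start that also occurs elsewhere in the genome. They lie in the cluster at chr19:19668796-24033405, in which 20 of 37 members were open in no library and 12 in all 6. ZNF91 and ZNF675 in the same cluster were open in all 6. In contrast, the cluster at the long arm's end, chr19:57191500-58474017, had 23 of 41 members open in all 6 and 10 in none. ZNF584, ZNF837 and ZNF497 start in it. In the cluster at chr19:51571283-53519527, 13 of 39 were open in all and 16 in none. Clusters were runs of members with gaps of at most 500 kb.

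**Figure D2:**
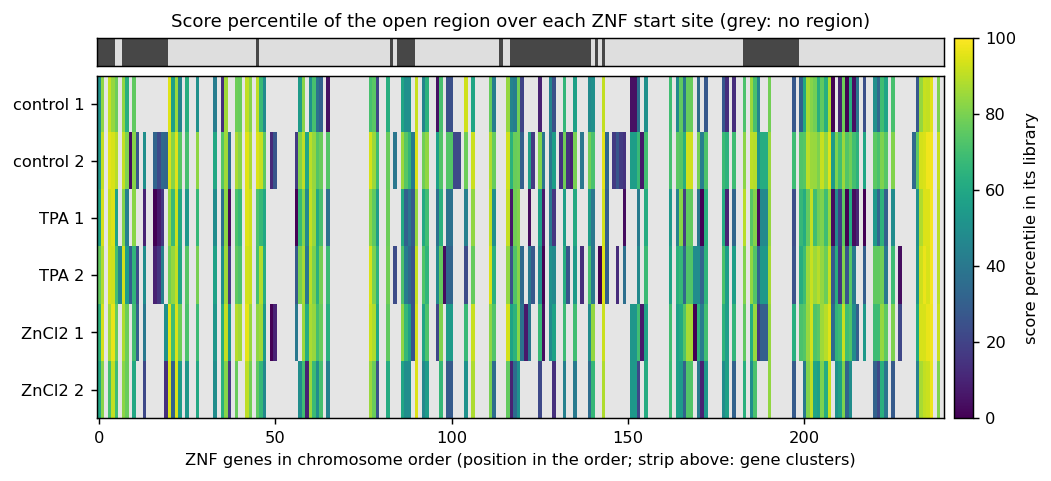
Score percentile (colour, 0 to 100) of the open region over each of the 240 ZNF start sites, in chromosome order (x axis, position in the order), for the 6 libraries (y axis); grey marks no region, and the strip above shows the gene clusters in alternating shades. Columns are mostly coloured or grey in all 6 rows (98 and 89 of 240 genes), and the run of 11 closed genes is the widest grey block.

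CpG content divided open from closed starts less sharply in ZNF genes than in other genes. In the 300 bp from 250 upstream to 50 downstream of the start, the median CpG observed/expected ratio was 0.783 in ZNF genes open in all libraries and 0.615 in those open in none, while in other genes it was 0.842 and 0.346. Of the 87 ZNF promoters with a ratio of at least 0.8, 49.4% were open in all 6 libraries and 27.6% in none. Of the 434 other promoters in that class, 64.1% were open in all and 12.2% in none. At the start of the canonical transcript the groups of this class stood nearer to each other. There 48 of the 87 ZNF and 273 of the 434 other genes were open in all 6, and 20 and 63 in none. At the gene start the share open in this class was lower for ZNF genes in 6 of 6 libraries, with a gap of -19.8 ± 3.41 percentage points (SD, n = 6) (51.7% to 70.1% against 68.7% to 86.2%; exact sign-flip test, two-sided, p = 0.03125), and of -20.3 points in the lists of equal number. At ratios under 0.4 the order was the other way, with 10.3% of 29 ZNF and 4.08% of 368 other promoters open in all 6. The class of at least 0.8 was chosen after its values were seen, and its p lies outside the adjustment over 3 paired comparisons.

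**Figure D3:**
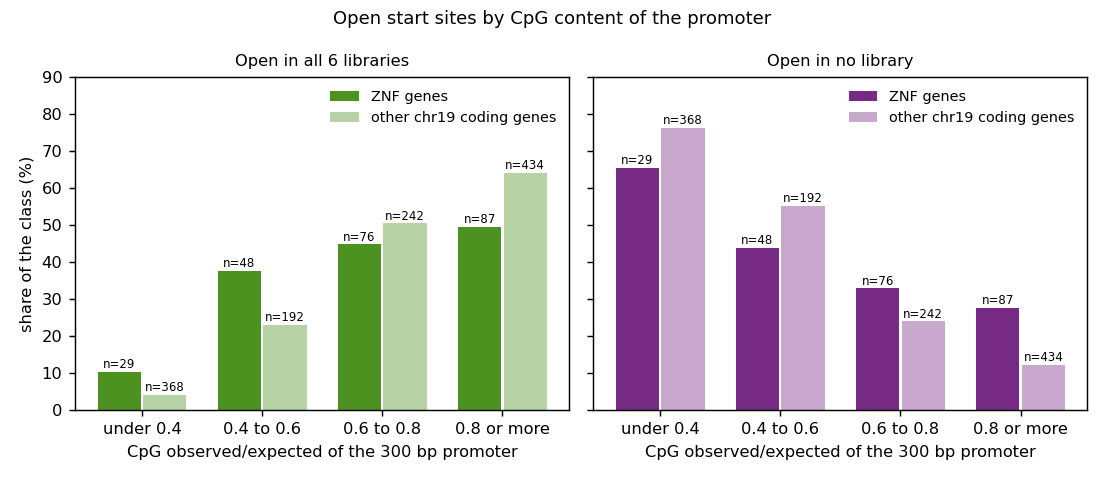
Share of genes (%, y axis) open in all 6 libraries (left) and in none (right), by the CpG observed/expected ratio of the 300 bp promoter (x axis), for ZNF genes (dark bars) and other coding genes of chromosome 19 (light bars); n is the number of genes in the bar. In the highest class 49.4% of ZNF and 64.1% of other genes were open throughout.

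The letters CCGGAAG, the core that ETS factors such as GABPA bind, were present on either strand in 40.4% of ZNF promoters, against 13.3% of the other promoters of chromosome 19 and 11.9% of all 20033 coding promoters. In other genes such promoters were mostly open, 70.9% of 165 in all 6 libraries, but among ZNF genes 42.3% of the 97 with the letters and 39.9% of the 143 without were open throughout. The share open among promoters with the letters was lower for ZNF genes in 6 of 6 libraries, with a gap of -25.7 ± 1.96 points (SD, n = 6; exact sign-flip test, two-sided, p = 0.03125). This class and those compared below were also chosen after their values were seen, and their p-values were left out of that adjustment. CCAAT, the letters that NF-Y binds, stood in 52.5% of ZNF promoters and 37.0% of the others (35.9% of all coding promoters). The GC box GGGCGG was in 62.1%, 59.2% and 52.4%, and TATAAA in 7.5%, 6.63% and 10.8%. None of these letter strings contains another. Promoters with another coding start within 1 kb (43 ZNF, 287 other genes) and those without a repeated 50 bp piece (216 and 1094) were compared in the same way. The gaps were -2.37 ± 5.08 points (exact sign-flip test, p = 0.312) and -0.0947 ± 1.78 points (p = 0.906, exact) with all regions, and -10.9 and -2.84 points in the lists of equal number (exact p = 0.03125 for each). Of the 193 members with the KRAB-like pattern, 78 were open in all 6 and 73 in none, and of the 47 without it, 20 and 16.

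Among the members open throughout, the highest mean percentiles were those of ZNF584, ZNF837, ZNF497, ZNF564 and ZNF473. ZNF584 lay at 95.6 and 98.5 in control, 99.0 and 99.1 with TPA and 98.2 and 97.6 with ZnCl2. ZNF564 lay at 90.4 and 95.5, 95.3 and 93.3, and 96.4 and 90.2 with a CpG ratio of 0.31, so a CpG-poor promoter stood among the top 5. ZNF473, whose protein binds the U7 snRNP of histone pre-mRNA processing, lay between 88.2 and 96.0. The lowest means were those of ZNF773, ZNF71, ZNF224, ZNF575 and ZNF550. ZNF550 had the lowest score of its list in control replicate 1 and TPA replicate 1 (percentile 0), and 73.4 in control replicate 2, so its replicates differed more than its treatments.

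The members known best for a function were mixed. Of the transposon repressors, ZNF91 lay at 74.5 and 85.0 in control, 75.1 and 80.4 with TPA and 87.9 and 77.1 with ZnCl2. ZNF587 and ZNF417, which also act on transposons, were open in all 6. ZNF93, a repressor of L1 elements, was open only in control replicate 2 (26.6) and ZnCl2 replicate 1 (9.89). ZNF274, which recruits SETDB1 to ZNF gene ends, was open in control replicate 2 alone (34.3), as was ZNF350 (17.1), a partner of BRCA1. ZNF331, an imprinted gene, was open in none, with the nearest region 904 bp away. ZNF224, ZNF675 and ZNF146 were open in all 6, and ZNF146, made of fingers alone, lay between 84.7 and 94.8. Of 15 partner genes of the KRAB domain on any chromosome, 10 were open in all 6 libraries, among them TRIM28 (90.4 to 95.4), and CHD4 and HDAC2 were open in none at their gene start.

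Of 14 members known to be silenced by promoter methylation in carcinomas, 13 were open in no library. They were ZNF154, ZNF582, ZNF671, ZNF132, ZNF135, ZNF177, ZNF471, ZNF677, ZNF382, ZNF529, ZNF569, ZNF583 and ZNF610. The remaining one, ZNF568, was open in control replicate 2 alone (22.2). Over all members 37.1% were open in none, and the median CpG ratio of the 14 was 0.789, at the level of the members open throughout. ZNF135 has 32 CpG in its 300 bp promoter and was 111099 bp from the nearest open region. At the canonical start 11 of the 14 were open in none, and ZNF529 was open in all 6 and ZNF583 in 2. DNA methylation was not measured. The list comes from textbook knowledge and was chosen with earlier results of these data known, so the count is a description.

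The comparison of TPA with control asks whether loss of labile Zn2+ altered these promoters. With all regions the ZNF share open was 53.3 ± 10.0% in control and 54.2 ± 3.54% with TPA (SD, n = 2 each), a difference of 0.833 points (exact permutation test, two-sided, p = 1). In the lists of equal number it was 40.4% and 44.2% in control and 34.6% and 35.0% with TPA, a difference of -7.5 points, with both TPA libraries below both control libraries. The exact permutation p was 0.333, the smallest that 2 against 2 libraries allow (adjusted 0.667 over 12 contrasts, Benjamini-Hochberg), so this test could not pass 0.05 for any contrast between conditions. The other coding genes stood at 40.6% and 42.2% in control and 37.2% and 37.8% with TPA. The ZNF share less the share of the others was -0.198 and 2.01 points in control and -2.63 and -2.78 with TPA, a difference of -3.62 points (exact permutation p = 0.333). Open ZNF regions had lower scores than those of other genes, and whether that bears on this difference was not tested. With any 1 of the 4 libraries left out, the difference in the ZNF share lay between -9.38 and -5.62 points.

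Single start sites showed where this lay. With all regions no member was gained with TPA, meaning open in both TPA and neither control library, beside a background of 0.61% of coding genes on the chromosome. ZNF432 and ZNF841 were lost (0.833% of members; background 0.542%). Their starts are 27 bp apart and shared 1 region, at percentile 4.6 and 55.8 in control and 52.5 and 53.2 with ZnCl2, with a width of 1640 to 2600 bp. The TPA libraries had no region there.

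In the lists of equal number 14 members (5.83%) were lost with TPA and none gained, beside backgrounds of 4.07% lost and 0.678% gained and a share of 3.72% lost among the other genes. In map order they were ZNF599, ZNF30, ZNF345, ZNF790, ZNF383, ZNF575, ZNF296, ZNF616, ZNF600, ZNF888, ZNF71, ZNF134, ZNF551 and ZNF587, in 13 distinct control regions since ZNF345 and ZNF790 share one. In the full TPA lists all 14 were still called in replicate 1 and 13 in replicate 2, so these regions were called with TPA but lay below the score cut of the lists of equal number. Their median percentile was 39.9 and 70.1 in control, 34.1 and 34.3 with TPA and 63.8 and 35.2 with ZnCl2. These starts were picked by the same control and TPA scores, so the difference between control and TPA follows in part from the choice. Among members open throughout whose control and TPA values did not overlap, ZNF383 differed most, at 93.0 and 77.8 in control, 43.4 and 23.3 with TPA and 67.5 and 51.1 with ZnCl2. ZNF587 lay at 58.9 and 74.1, 30.8 and 40.1, and 75.1 and 38.5, and ZNF575 at 45.1 and 63.9, 6.79 and 25.7, and 57.5 and 9.41. At these 3 genes control and TPA did not overlap, which was the rule by which they were picked.

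**Figure D4:**
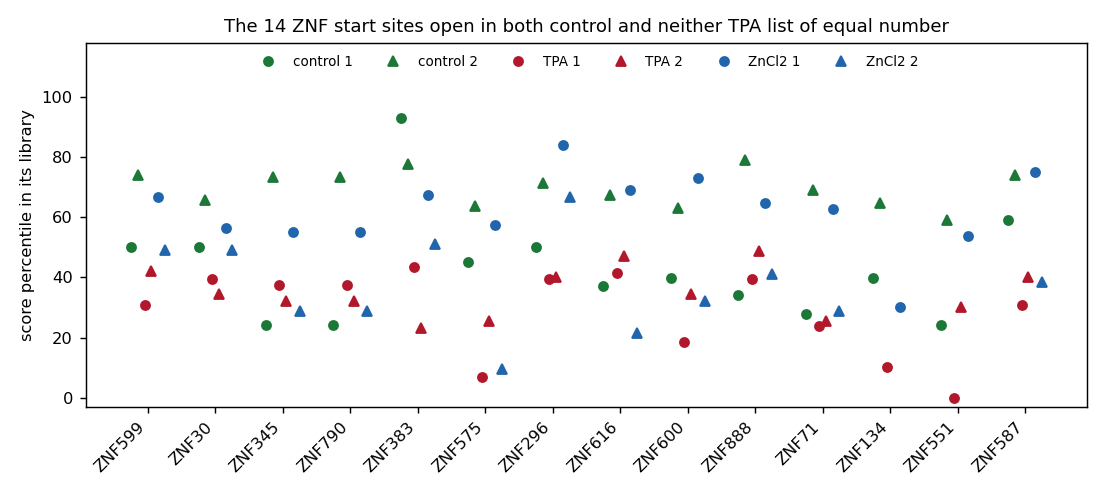
Score percentile (y axis, of all regions of the library) at the 14 ZNF start sites that were open in both control and neither TPA list of equal number (x axis), for control (green), TPA (red) and ZnCl2 (blue), replicate 1 as circles and replicate 2 as triangles; a missing point means no region. ZNF383 shows the widest gap, with control at 93.0 and 77.8 and TPA at 43.4 and 23.3, and at several genes, ZNF345 and ZNF790 among them, control replicate 1 lies below both TPA libraries. The genes were picked by these same control and TPA scores.

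Of the 98 open throughout, 8 (8.16%) had both TPA percentiles above both control percentiles, beside a background of 12.6%, and 21 (21.4%) had both below, beside 25%. The largest differences among these 8 were at ZNF554, with 50.1 and 52.3 in control and 56.6 and 75.6 with TPA, at ZNF571, with 76.6 and 88.1 and then 90.4 and 94.1, and at ZNF254, with 62.6 and 76.6 and then 77.7 and 78.2. By rank, counted from the highest score of the list, ZNF554 overlapped, at 11915 and 20788 in control and 15096 and 9724 with TPA. ZNF571 (5562 and 5178, then 3301 and 2336) and ZNF254 (8900 and 10193, then 7744 and 8705) did not. Over all 98 the median percentile was 62.6 and 80.6 in control, 67.0 and 73.4 for TPA, and 75.4 and 60.5 for ZnCl2. The 3 conditions thus overlapped in percentile, which depends on the length of the list. By rank the medians were 8900 and 8421 in control, 11463 and 10648 with TPA, and 9142.5 and 7158 with ZnCl2. Both TPA libraries thus ranked below the rest (TPA against control, exact permutation p = 0.333, the smallest possible). They were also lowest in the other genes open throughout, at 3987 and 4799, 6154 and 6769, and 5414 and 4520. The mean of the TPA medians over that of the control medians was 1.28 in ZNF genes and 1.47 in the other genes.

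Promoters were also divided by the letters CCAAT. In the lists of equal number, the 114 ZNF promoters without these letters were open in 38.6% and 40.4% of cases in control, 26.3% and 28.1% with TPA and 41.2% and 42.1% with ZnCl2. Those with the letters (126) stood at 42.1% and 47.6%, 42.1% and 41.3%, and 46.8% in both ZnCl2 libraries. Of the 14 starts lost with TPA, 11 were among the 114 without the letters and 3 among the 126 with them. The other coding genes had the same order, with 40 of 779 lost without the letters (5.13%) and 6 of 457 with them (1.31%). The share without minus the share with the letters moved by -9.11 points from control to TPA in ZNF genes and by -6.16 points in the others (exact permutation p = 0.333 for each, the smallest possible). Promoters without CCAAT were richer in GC, with a median of 61.5% against 56.7% in ZNF genes. Within promoters under 60% GC the change from control to TPA was -13.8 points without the letters (47 ZNF genes) and -4.17 with them (96 genes), and within those of 60% or more it was -11.2 (67 genes) and 0 (30 genes). In the other genes the corresponding changes were -1.88 and 0.732 points under 60% GC, and -8.73 and -0.595 points at 60% or more. The split by these letters was chosen after its values were seen, and it was 1 of 5 letter strings looked at. The others were those of ETS factors, the GC box, the TATA box and NRF1, and no values are given for NRF1.

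**Figure D5:**
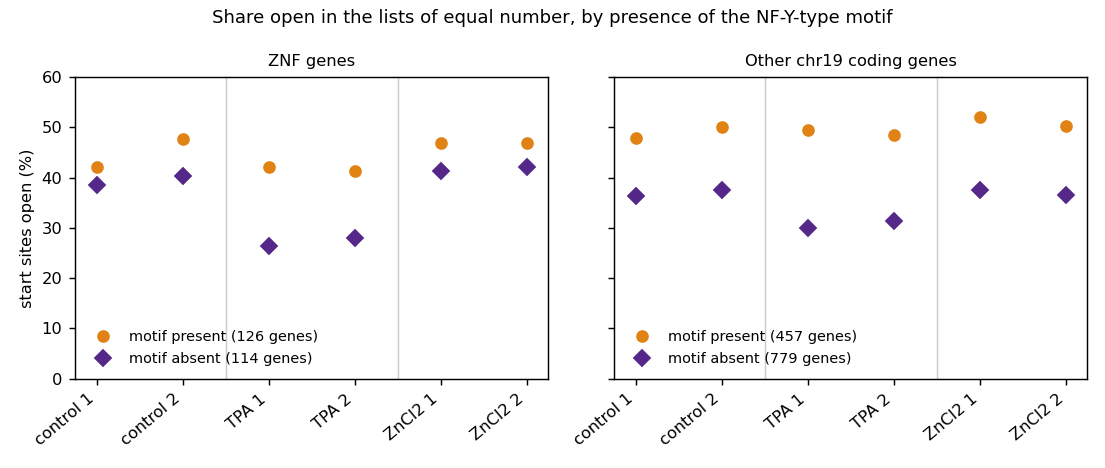
Share of start sites open in the lists of equal number (%, y axis) by library (x axis), for promoters with the CCAAT motif (circles) and without it (diamonds), in ZNF genes (left) and other coding genes of chromosome 19 (right). ZNF promoters without the motif stood at 26.3% and 28.1% with TPA and at 38.6% or more in the other 4 libraries.

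ZnCl2 and control libraries did not separate in the share of ZNF starts open, in either kind of list. The share open in the lists of equal number was 44.2% and 44.6% with ZnCl2 and 40.4% and 44.2% in control, a difference of 2.08 points (exact permutation p = 0.667). With all regions it was -4.17 points (exact permutation p = 0.667). With all regions no member was gained or lost, beside backgrounds of 0.0678% gained and 0.271% lost. In the lists of equal number ZNF846, ZNF563, ZNF432 and ZNF841 were gained (1.67%; background 0.949%) and ZNF134 was lost (0.417%; background 0.678%). With control replicate 2 left out these counts were 14 gained and 3 lost, with control replicate 1 or ZnCl2 replicate 1 left out 6 gained and 4 lost, and with ZnCl2 replicate 2 left out 4 gained and 3 lost. All 4 of the gained starts were already called in the full list of control replicate 2. Of the 98 members open throughout, 2 (2.04%; background 4.49%) had both ZnCl2 percentiles above both control values, ZNF554 and ZNF543, and 9 (9.18%; background 22.3%) had both below. Of these 9, the largest differences were at ZNF524, with 84.9 and 90.1 in control and 61.9 and 48.9 with ZnCl2, at ZNF383, given above, and at ZNF611, with 75.5 and 74.1 and then 60.8 and 55.2. The ranks of ZNF383 overlapped (1681 and 9643 in control, 12025 and 8840 with ZnCl2), as did those of ZNF554 (11915 and 20788, then 13400 and 7464). TPA against ZnCl2 gave a difference of -9.58 points in the share open (34.6% and 35.0% against 44.2% and 44.6%; exact permutation p = 0.333), which turned to 5.0 points with all regions (p = 0.667, exact).

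A few ZNF starts lay in very wide regions, and mostly so with TPA. Regions over 10 kb covered 1 open ZNF start in each control library, 4 and 12 in the TPA libraries and 0 in both ZnCl2 libraries, which is 3.23% and 8.82% of open ZNF starts with TPA. Among the other genes it was 1 and 15 in control, 14 and 69 for TPA, and 3 and 5 for ZnCl2, so control replicate 2 stood near TPA replicate 1 there. With TPA this is 2.35% and 10.6% of the open starts of other genes, near the ZNF shares. ZNF28 and ZNF468, 49 bp apart, shared a region of 930 and 2110 bp in control and of 2120 and 1840 bp with ZnCl2, but of 37180 and 37330 bp in the TPA libraries. ZNF57 lay in a region of 21050 and 20730 bp in control, of 23010 and 22650 bp in the TPA libraries and of 2200 and 1640 bp in the ZnCl2 libraries. ZNF296 and ZNF888, both among the 14 lost starts, lay in regions of 36180 and 35580 bp in TPA replicate 2. Whether the width of these calls bears on their scores was not tested.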

How the data were processed

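ATAC-seq libraries of MCF10A cells were compared, 2 for each of control, TPA and ZnCl2, grouped by the treatment in the sample labels. The authors removed adapters (BBDuk), aligned paired reads to hg38 (HISAT2) and ran HMMRATAC on each library to find open regions; its version is not given in the sources used here. The submitters' processing notes name FastQC 0.11.8, HISAT2 2.1.0 and SAMtools 1.8. The deposited lists hold the position and a score of each open region, whole numbers of at least 30, whose kind is not stated. The score can depend on sequencing depth, which the lists do not give, so it was turned into a percentile within its list. Blacklisted sequence was not removed here, and the authors' later merging and read counting were not used.

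Start sites came from GENCODE release 44, and promoter sequences, motifs and 50 bp pieces from hg38. An open start was covered by a region of the list. Groups were compared by exact permutation tests over libraries (2 against 2) and ZNF with other genes by exact sign-flip tests over the 6 libraries, both two-sided, in Python 3.11.15 with SciPy 1.17.1. Calls were checked against bedtools 2.31.1 and tested on simulated data. Background percentages are the share of the 1476 coding genes of the chromosome, or of those open in all 6 libraries, that met the same rule. Fingers and the KRAB-like pattern were found in proteins translated from the annotation.

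The text names members gained or lost with a treatment. Of more than 5 in a direction with an equal number of regions, the rule picks the 5 with the highest mean percentile. Of those 5 lost with TPA, only ZNF383 and ZNF587 have their percentiles written out. Also named are the 5 highest and 5 lowest mean percentiles and the 3 widest regions among members open in all libraries. Per treatment and direction, the 3 largest differences are named among members open in all libraries whose treated and control percentiles did not overlap. The rest are 4 of the 5 most GC-rich members open in none, and preset lists. The members and lists were chosen with earlier results of these data known. ZNF345 and ZNF790 outside that rule, the run of closed genes, and the promoter classes were chosen after their values were seen. 4 classes were compared by the sign-flip test (high CpG ratio, ETS letters, another coding start within 1 kb, no repeated piece), and the CCAAT split by permutation. Alternatives were lists of equal number, a region within 250 bp, canonical starts, broader symbols, narrower comparison genes, each library left out and a replicate block. 1 item that the naming rule selects is not reported here.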

Additional observations from a re-analysis of the deposited data

How the results depend on the processing

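The sign of every treatment contrast in the share open differed between the full lists and the lists of equal number. With an equal number of regions the ZNF share differed by -7.5 points for TPA minus control, 2.08 for ZnCl2 minus control and -9.58 for TPA minus ZnCl2, and the ZNF share less that of other genes by -3.62, 1.15 and -4.77 points, all of the sign opposite to that with all regions. A region within 250 bp of the start gave -0.311 for the second measure, TPA minus control. The paired gap in the share open, ZNF minus other genes, was no longer past the threshold with an equal number (0.087) or with broader symbols (1.63). At canonical starts it rose to 9.72. Without promoters holding a repeated 50 bp piece, a class chosen after its values were seen and compared for this share only, it was -0.0947 points. The gaps in percentile and width kept their direction and threshold under each of the alternatives that used all 6 libraries.

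Leaving out 1 library at a time, the share ran from -6.25 to 7.92 points (TPA minus control) and from -11.2 to 2.92 (ZnCl2 minus control), the share less that of other genes from -1.56 to 2.33 and from -3.36 to 0.53, the median percentile from -11.1 to 2.25, from -11.0 to 2.32 and, for TPA minus ZnCl2, from -6.18 to 6.04, and the median width from -665 to 95 bp and from -245 to 515 bp. For TPA minus ZnCl2 the share ran from 0.417 to 9.58 points and the share less that of other genes from 0.845 to 2.76. The median width for this contrast ran from -555 to -285 bp, so these ranges did not change sign with all regions. The paired gaps ran from 2.57 to 3.44 points, from -13.3 to -10.9 percentile points and from -732 to -621 bp. Each had p = 0.0625 in the exact sign-flip test, the smallest that 5 libraries allow.

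Starts gained and lost numbered 2 with TPA and 0 with ZnCl2 with all regions, 14 and 5 with an equal number, 1 with TPA at canonical starts, and 3 to 18 and 4 to 18 with 1 library left out. Without control replicate 1, TPA lost 13 and gained 0, and without control replicate 2 it lost 2 and gained 16. Leaving out 1 library within the lists of equal number was a combination chosen after seeing the data, while those lists themselves were planned. The starts lost with TPA then numbered 15 to 18, a count that cannot go below 14 since fewer libraries relax the rule. ZnCl2 reached 14 gained and 3 lost without control replicate 2. The labels do not say that replicate numbers pair the libraries, and deviations from the group means correlated at 0.15 (control with TPA), -0.363 (control with ZnCl2) and -0.174 (TPA with ZnCl2) over 557 genes. Within a replicate block the mean number of starts that changed per pair was 19 with TPA and 29 with ZnCl2, and with the pairing crossed, chosen after seeing the data, it was 19 with ZnCl2. Differences in means are the same with and without the block. Depth is unknown, so a start with no region may lie below detection in that library.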
